A study of Mus musculus with 12 samples.

Results

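MHC class II presentation is carried here by 7 genes, H2-Aa, H2-Ab1, H2-Eb1, H2-DMa, H2-DMb1, Cd74 and Ciita, which were picked by gene symbol from the 26264 symbols counted in glomerulus-enriched RNA of 2 BALB/c mouse substrains. All 7 passed the filter on low counts that left 17002 genes for testing. The mice were males of 8 weeks, either BALB/cAjcl (Ajcl) or BALB/cByJcl (ByJcl), and the labels name no transgene or engineered allele. Each substrain was sampled untreated (baseline) and at Day 5 after 1 intravenous dose of adriamycin (ADR, doxorubicin) of 10 mg/kg given behind the eye, with 3 libraries per group. Glomeruli, the filtering units of the kidney, were collected through magnetic beads that had lodged in their capillaries. The preparation is enriched rather than pure, and RNA of leukocytes and tubule cells was detected in it. Replicate 1 of Ajcl at Day 5 was left out of the statistical fit because the study excluded it for reduced glomerular purity. Values of the 7 genes in it are given all the same, and so are their calls with it where these differ.

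MHC class II molecules are paired alpha and beta chains that show peptides from the endosomes to CD4+ T cells. They are made by dendritic cells, B cells and macrophages, which in the kidney lie mostly in the interstitium, and other cells can be brought to make them by interferon-gamma. H2-Aa and H2-Ab1 encode the chains of I-A, and H2-Eb1 the beta chain of I-E, whose alpha chain is H2-Ea. Cd74 is the invariant chain that guides new class II molecules to endosomes and blocks their groove, and H2-DMa and H2-DMb1 encode the H2-DM pair that exchanges its remnant for peptide. Ciita is the transactivator that turns these genes on through factors bound to a shared promoter module, with an X box followed by a Y box (an inverted CCAAT).

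In GRCm39, 5 of the genes lie on chromosome 17 within the mouse MHC. H2-DMa spans 34338515 to 34358958, H2-DMb1 34372046 to 34379204, H2-Ab1 34476663 to 34488393, H2-Aa 34493404 to 34506798 on the minus strand, and H2-Eb1 34504236 to 34535648. Cd74 and Ciita lie on other chromosomes. In the GENCODE annotation H2-Aa and H2-Eb1 share 2563 bases on opposite strands, H2-DMa shares 3231 bases with Brd2 on the opposite strand, and Ciita shares 29935 bases with Dexi on the opposite strand. Non-coding genes overlap some members too. Gm50336 shares 9074 bases with H2-DMa on the same strand, and Gm20513 shares 15838 bases with H2-Eb1 on the opposite strand. H2-DMb1 has a close paralog, H2-DMb2. Whether the counting used strand, held these non-coding genes, or split reads between the paralogs, is not given in the sources used here. Counts of overlapping genes and of the paralogs are uncertain to that degree.

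RefSeq promoter windows (250 bases before to 50 after a start, GRCm38.p6) were at hand for 4 of the 7 genes, H2-Aa, H2-Eb1, H2-DMa and H2-DMb1. They were searched on the gene's own strand for the letters GCAAC, from the X box, followed after 20 to 35 bases by ATTGG, the Y box letters. The pair occurred in 128 of 32851 mouse promoter windows (0.39%), and in the windows of H2-Aa and H2-Eb1. It was not found in the window of H2-DMb1, which says only that these exact letters in this spacing are not there. The 2 windows of H2-DMa belong to upstream starts, 12754 and 10068 bases before the start of its canonical transcript in GRCm39, so nothing is read from them here. The window of H2-Eb1 is shown because that gene fell after ADR in ByJcl in each alternative tried, and H2-Aa is printed as the other holder of the pair. Capitals mark the pair, 28 bases apart in H2-Aa and 27 in H2-Eb1. The windows are chr17:34287774-34288073 on the minus strand (H2-Aa) and chr17:34305617-34305916 on the plus strand (H2-Eb1).
H2-Aa: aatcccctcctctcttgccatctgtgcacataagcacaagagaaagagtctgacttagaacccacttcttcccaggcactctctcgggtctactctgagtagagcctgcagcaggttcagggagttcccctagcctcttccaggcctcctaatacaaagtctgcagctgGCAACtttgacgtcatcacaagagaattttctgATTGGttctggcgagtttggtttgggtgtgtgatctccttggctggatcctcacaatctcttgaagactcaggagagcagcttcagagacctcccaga
H2-Eb1: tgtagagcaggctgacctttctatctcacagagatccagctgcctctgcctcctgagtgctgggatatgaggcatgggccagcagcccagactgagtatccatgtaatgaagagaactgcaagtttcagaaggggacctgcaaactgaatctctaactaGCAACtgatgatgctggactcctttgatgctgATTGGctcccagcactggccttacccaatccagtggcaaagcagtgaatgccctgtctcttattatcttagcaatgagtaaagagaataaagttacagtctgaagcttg
The X box letters began 81 bases before the start in H2-Aa and 91 bases before it in H2-Eb1. Such a match describes the letters and not a bound site.

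Levels are given as CPM, that is, counts scaled to the TMM-adjusted library size, and levels of different genes are compared per kilobase of the canonical transcript. Per kilobase, Cd74 and H2-Ab1 were the highest of the 7 in Ajcl at baseline, at 13.1 ± 1.09 and 13.1 ± 2.17 CPM per kilobase (SD, n = 3), and did not differ beyond their spread. H2-Aa followed at 7.14 ± 1.43 and H2-Eb1 at 4.19 ± 0.232 CPM per kilobase. H2-DMa was at 1.70 ± 0.383, H2-DMb1 at 0.514 ± 0.105 and Ciita at 0.132 ± 0.0431 CPM per kilobase. The order was the same in ByJcl at baseline, from Cd74 at 31.0 ± 10.1 and H2-Ab1 at 27.3 ± 5.71 down to Ciita at 0.494 ± 0.173 CPM per kilobase (SD, n = 3), and Cd74 and H2-Ab1 again overlapped. At Day 5 in ByJcl, H2-DMa at 5.19 ± 1.82 stood above H2-Eb1 at 3.29 ± 0.909 CPM per kilobase by their means (SD, n = 3), with overlapping libraries. In Ajcl at Day 5 H2-DMa at 3.09 ± 0.793 also stood above H2-Eb1 at 1.92 ± 0.438 CPM per kilobase (SD, n = 2), without overlap in the libraries of the fit. The left-out library had 2.50 CPM of H2-DMa and 4.47 CPM of H2-Eb1, not scaled to length.

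At baseline the class II genes read higher in ByJcl than in Ajcl. The fitted log2 fold change (log2FC) was above 0 for each of the 7, between 0.41 for H2-DMa and 1.91 for Ciita, with a median of 1.15 beside 0.01 over all genes tested. For 6 of the 7, all but H2-DMa, each ByJcl library lay above each Ajcl library, as it did for 8.22% of all genes. None of these differences passed the threshold of an adjusted p of 0.05 by edgeR (quasi-likelihood test, Benjamini-Hochberg adjustment over all genes), and 0.159% of all genes did. At an unadjusted p below 0.05 there were 6 of the 7, against 8.34% of all genes. DESeq2 called 4 of them (H2-Ab1, H2-Eb1, Cd74 and Ciita), against 0.631% of the genes to which it gave an adjusted p. When the left-out library was added, a setting chosen after seeing the data, it called 2 (H2-Eb1 and Cd74), against 0.406%.

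**Figure D1:**
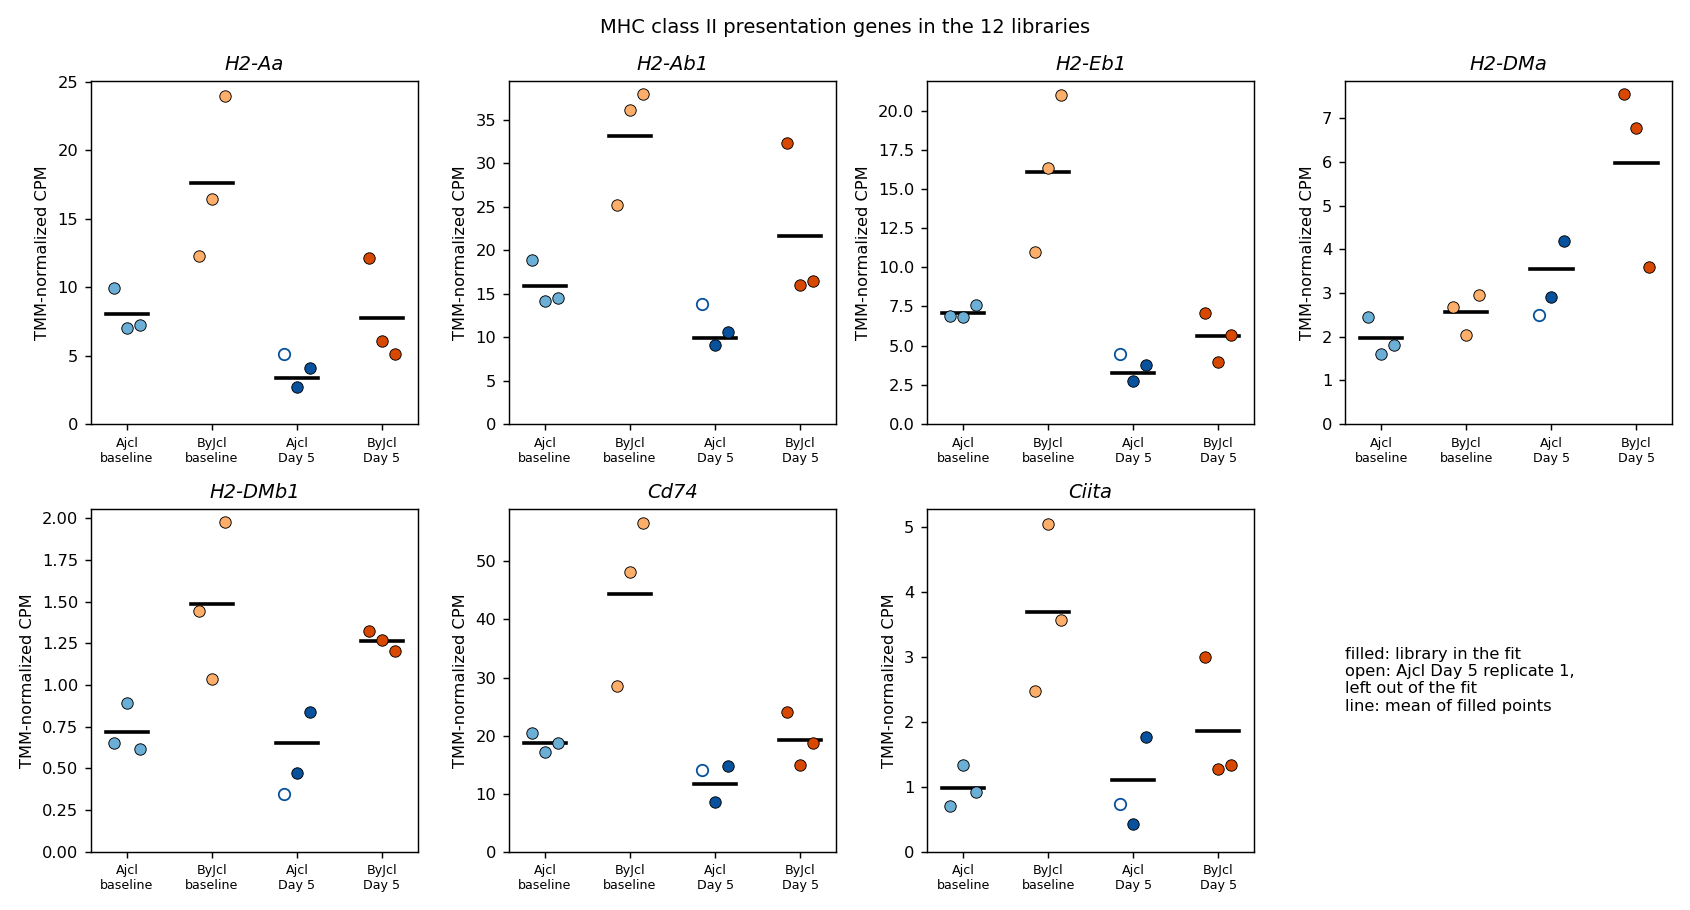
Levels of the 7 class II presentation genes in each of the 12 libraries, in TMM-normalized CPM on linear axes that start at 0. Filled points are libraries in the fit, the open point is replicate 1 of Ajcl at Day 5, and lines are means of the filled points. At baseline the ByJcl points of 6 genes lie above all Ajcl points, and for H2-DMa the Day 5 points lie above the baseline points in both substrains.

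Cd74, on chromosome 18 from 60936899 to 60945731, was at 20.4, 17.3 and 18.8 CPM in the Ajcl baseline libraries and at 28.5, 48.1 and 56.7 CPM in those of ByJcl. The ByJcl libraries were all higher, and spread more widely, with replicate 1 the lowest. The log2FC was 1.26 (95% interval 0.66 to 1.86, adjusted p = 0.220, edgeR).

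Both chains of I-A read higher in ByJcl. H2-Ab1 was at 18.9, 14.2 and 14.5 CPM in Ajcl and at 25.2, 36.1 and 38.0 CPM in ByJcl, a log2FC of 1.08 (95% interval 0.48 to 1.68, adjusted p = 0.387, edgeR). H2-Aa was at 9.92, 7.04 and 7.20 CPM in Ajcl and at 12.3, 16.5 and 24.0 CPM in ByJcl, a log2FC of 1.15 (95% interval 0.37 to 1.92, adjusted p = 0.515, edgeR). For both genes the lowest ByJcl library lay above the highest Ajcl library.

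H2-Eb1, the I-E beta chain, was at 6.92, 6.85 and 7.56 CPM in Ajcl and at 10.96, 16.4 and 21.0 CPM in ByJcl. The Ajcl libraries were close to each other and all below those of ByJcl. The log2FC was 1.20 (95% interval 0.61 to 1.78, adjusted p = 0.237, edgeR).

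Ciita, on chromosome 16 from 10297923 to 10347694, had the largest fitted difference of the 7 and the widest interval. Its level was 0.702, 1.34 and 0.916 CPM in Ajcl, from 30 to 63 counts, and 2.47, 5.04 and 3.57 CPM in ByJcl, from 116 to 234 counts. The groups did not overlap, and the log2FC was 1.91 (95% interval 0.73 to 3.10, adjusted p = 0.503, edgeR). Dexi, which overlaps Ciita on the other strand, was between 12.0 and 19.2 CPM over the 12 libraries.

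Of the H2-DM chains, the beta chain was free of overlap and the alpha chain was not. H2-DMb1 was at 0.655, 0.891 and 0.618 CPM in Ajcl and at 1.45, 1.03 and 1.98 CPM in ByJcl, without overlap, a log2FC of 1.06 (95% interval 0.29 to 1.84, adjusted p = 0.555, edgeR). H2-DMa was at 2.46, 1.61 and 1.81 CPM in Ajcl and at 2.68, 2.05 and 2.96 CPM in ByJcl, where the groups overlapped. Its log2FC was 0.41 (95% interval -0.29 to 1.11, adjusted p = 0.691, edgeR).

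At Day 5 after ADR the class II genes again read higher in ByJcl, with a log2FC above 0 for each of the 7, from 0.75 for Cd74 to 1.23 for H2-Aa, and a median of 0.81 beside 0.00194 over all genes. None passed the threshold in edgeR, where 0.165% of all genes did. At an unadjusted p below 0.05 there were 5 of the 7, against 14% of all genes, and DESeq2 called 2 (H2-Aa and H2-Ab1, against 3.49% of all genes). With all 12 libraries edgeR called none (against 0.433% of all genes), with 6 at an unadjusted p below 0.05 (against 18.3%), and DESeq2 called H2-Ab1 and H2-DMb1 (against 5.68%). Each ByJcl library lay above both Ajcl libraries of the fit for 5 of the 7 (15.1% of all genes) and above all 3 for H2-Ab1, H2-DMb1 and Cd74 (3 of 7, against 9.03% of all genes). With single libraries left out each log2FC stayed above 0, but the size moved widely. Without Ajcl Day 5 replicate 2 it was 0.090 for Ciita and 0.39 for Cd74, and without Ajcl Day 5 replicate 3 it was 2.20 and 1.23. For H2-Aa it ranged from 0.73 without ByJcl Day 5 replicate 1 to 1.61 without Ajcl Day 5 replicate 3. This comparison rests on 2 Ajcl libraries, and it shares its libraries with the comparisons of Day 5 with baseline.

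H2-Ab1 was at 9.15 and 10.6 CPM in the 2 Ajcl libraries of the fit, at 13.9 CPM in the left-out one, and at 32.4, 16.0 and 16.5 CPM in ByJcl. The ByJcl libraries lay above all 3 of Ajcl, and replicate 1 was far above its partners. The log2FC was 1.16 (95% interval 0.47 to 1.86, adjusted p = 0.166, edgeR). H2-Aa was at 2.68 and 4.06 CPM, with 5.14 CPM in the left-out library, against 12.1, 6.05 and 5.13 CPM in ByJcl, so that the groups overlapped once the left-out library was counted.

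Cd74 at Day 5 was at 8.59 and 14.8 CPM in Ajcl, with 14.1 CPM in the left-out library, and at 24.1, 14.98 and 18.7 CPM in ByJcl. The lowest ByJcl library was barely above the highest Ajcl one, and the log2FC was 0.75 (95% interval 0.06 to 1.43, adjusted p = 0.326, edgeR). H2-DMb1 was at 0.470 and 0.836 CPM in Ajcl (0.345 CPM in the left-out library) and at 1.32, 1.27 and 1.21 CPM in ByJcl, without overlap. Ciita overlapped between the substrains, at 0.425 and 1.77 CPM in Ajcl and 2.99, 1.27 and 1.34 CPM in ByJcl.

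From baseline to Day 5 in ByJcl, the invariant chain Cd74 and the I-E beta chain H2-Eb1 fell, and the H2-DM alpha chain H2-DMa rose. These were 3 of the 7 past the threshold in edgeR's quasi-likelihood test, against 10.6% of all genes (5.75% called higher and 4.83% called lower). The other members, H2-Aa, H2-Ab1, H2-DMb1 and Ciita, had log2FC between -1.14 and -0.21 and did not pass it. The median over the 7 was -0.94, beside 0.01 over all genes, and 4 of the 7 had an unadjusted p below 0.05, against 26.8% of all genes. All Day 5 libraries lay below baseline for 3 of the 7 (H2-Aa, H2-Eb1 and Cd74, against 17.7% of all genes) and above it for 1 (H2-DMa, against 15.9%). The count of 3 dropped to 1, H2-Eb1, when baseline replicate 2, baseline replicate 3 or Day 5 replicate 2 of ByJcl was left out, and rose to 4 without Day 5 replicate 1. Calls over all genes moved too, from 1800 in the main fit to 680 without ByJcl Day 5 replicate 2 and to 2056 without Ajcl baseline replicate 1. DESeq2 called 4, H2-Aa included, against 15.8% of all genes. Baseline and Day 5 libraries were counted into a table each, and how those tables were made and what ADR did cannot be told apart. No library is labelled as saline-injected, so the injection and the elapsed time cannot be told apart from ADR either.

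H2-Eb1 went from 10.96, 16.4 and 21.0 CPM at baseline to 7.06, 3.99 and 5.71 CPM at Day 5. Every Day 5 library was below every baseline library, and the level fell by 1.49 on the log2 scale (95% interval -2.08 to -0.90, adjusted p = 0.00711, edgeR). It kept its call in each alternative tried. Its partner H2-Ea, the I-E alpha chain, fell by 1.39 (adjusted p = 0.00742, edgeR), from 12.2, 14.8 and 21.6 CPM to 7.53, 5.01 and 5.54 CPM. Between the substrains at baseline edgeR did not call H2-Ea and DESeq2 did, and for ADR in Ajcl DESeq2 called it with all 12 libraries only. The ratio of H2-Ea to H2-Eb1 counts stayed between 0.758 and 1.26 over all 12 libraries.

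Cd74 went from 28.5, 48.1 and 56.7 CPM to 24.1, 14.98 and 18.7 CPM, without overlap although baseline replicate 1 and Day 5 replicate 1 were close. It fell by 1.17 on the log2 scale (95% interval -1.77 to -0.57, adjusted p = 0.0221, edgeR). The call was lost without baseline replicate 2 or 3 or Day 5 replicate 2 or 3, with an adjusted p between 0.0582 and 0.0972.

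H2-DMa moved the other way, from 2.68, 2.05 and 2.96 CPM to 7.55, 6.77 and 3.60 CPM. The Day 5 libraries were all above those of baseline, with replicate 3 nearest to them. The log2FC was 1.25 (95% interval 0.56 to 1.94, adjusted p = 0.0298, edgeR). The call was lost without any 1 baseline library, without Day 5 replicate 1 or 2 (adjusted p between 0.0603 and 0.115), and in a fit of the 2 ByJcl groups alone (adjusted p = 0.0514). Brd2, a highly expressed gene that overlaps H2-DMa on the opposite strand, was at 488 to 523 CPM at baseline and 511 to 537 CPM at Day 5 in ByJcl, and its part in the H2-DMa counts was not tested.

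The I-A chains did not pass. H2-Aa went from 12.3, 16.5 and 24.0 CPM to 12.1, 6.05 and 5.13 CPM, a log2FC of -1.14 (95% interval -1.91 to -0.37, adjusted p = 0.0613, edgeR). Day 5 replicate 1 was close to the baseline libraries, and without it the log2FC was -1.63 (adjusted p = 0.0110, edgeR). H2-Ab1 was at 32.4 CPM in that library too, within the baseline range of 25.2 to 38.0 CPM, and at 16.0 and 16.5 CPM in the others. Its log2FC was -0.58 (95% interval -1.17 to 0.01, adjusted p = 0.196, edgeR) and -1.01 without replicate 1 (adjusted p = 0.0119, edgeR).

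H2-DMb1 at Day 5, at 1.32, 1.27 and 1.21 CPM, lay within its baseline range of 1.03 to 1.98 CPM in ByJcl. Ciita went from 2.47, 5.04 and 3.57 CPM to 2.99, 1.27 and 1.34 CPM, with overlap, a log2FC of -0.94 (95% interval -2.08 to 0.20, adjusted p = 0.273, edgeR).

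In Ajcl the 7 genes showed log2FC from -1.23 for H2-Aa to 0.89 for H2-DMa between baseline and Day 5, with a median of -0.66 beside -0.01 over all genes. None passed the threshold in edgeR, where 0.312% of all genes did. All 3 Day 5 libraries lay below baseline for 4 of the 7 (H2-Aa, H2-Ab1, H2-Eb1 and Cd74, against 6.51% of all genes) and above it for 1 (H2-DMa, against 6.73%). At an unadjusted p below 0.05 there were 3 of the 7 (H2-Aa, H2-Eb1 and H2-DMa), against 9.8% of all genes, and DESeq2 called 1, H2-Eb1 (against 1.77% of all genes), but none with all 12 libraries (against 1.91%). The group at Day 5 holds 2 libraries in the fit.

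H2-Eb1 in Ajcl went from 6.92, 6.85 and 7.56 CPM to 2.73 and 3.78 CPM, with 4.47 CPM in the left-out library, all below baseline. The log2FC was -1.10 (95% interval -1.78 to -0.42, adjusted p = 0.226, edgeR). H2-Aa went from 9.92, 7.04 and 7.20 CPM to 2.68 and 4.06 CPM (5.14 CPM in the left-out library), also without overlap, a log2FC of -1.23 (95% interval -2.13 to -0.33, adjusted p = 0.310, edgeR). H2-DMa was at 2.46, 1.61 and 1.81 CPM at baseline and at 2.91 and 4.20 CPM at Day 5, with 2.50 CPM in the left-out library. Its log2FC was 0.89 (95% interval 0.12 to 1.65, adjusted p = 0.408, edgeR).

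Cd74 in Ajcl was at 20.4, 17.3 and 18.8 CPM at baseline and at 8.59 and 14.8 CPM at Day 5 (14.1 CPM in the left-out library). The groups did not overlap, and the log2FC was -0.66 (95% interval -1.34 to 0.03, adjusted p = 0.535, edgeR), with -0.31 without Day 5 replicate 2 and -1.15 without replicate 3. Ciita ranged from 0.425 to 1.77 CPM over the 3 Day 5 libraries of Ajcl and overlapped its baseline values, as did H2-DMb1.

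**Figure D2:**
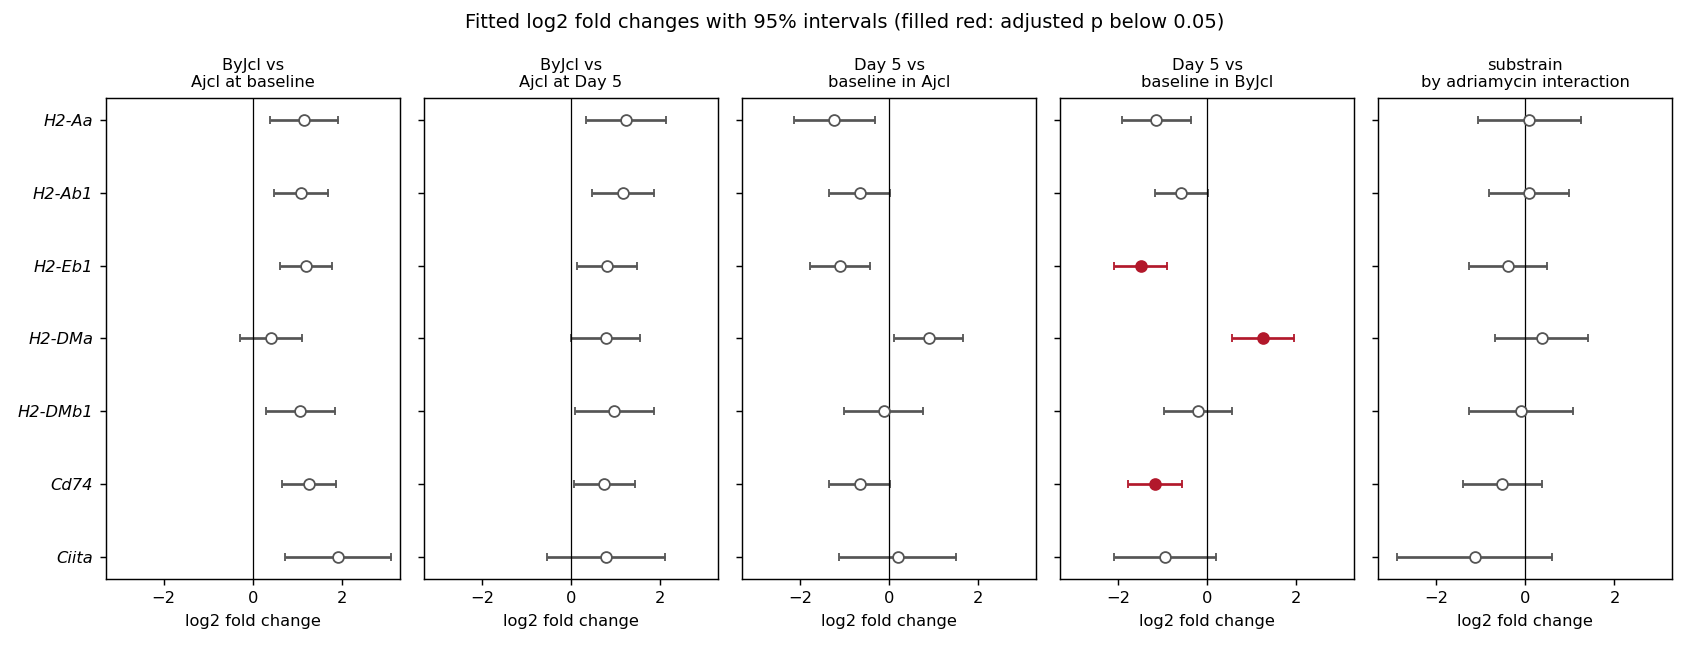
Fitted log2 fold changes of the 7 genes (points) with 95% intervals (bars) in the 5 comparisons, from edgeR's quasi-likelihood fit to 11 libraries. Filled red points passed an adjusted p of 0.05, which were H2-Eb1, H2-DMa and Cd74 for Day 5 against baseline in ByJcl, and all points in both substrain panels lie right of 0.

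Whether the response to ADR differed between the substrains was asked with the interaction of substrain and ADR. No member passed the threshold in edgeR or DESeq2, and none had an unadjusted p below 0.05. Over all genes edgeR called 0 (0%), with 1363 at an unadjusted p below 0.05 (8.02%), and DESeq2 called 22 (0.143%). The interaction was -0.51 for Cd74 (95% interval -1.41 to 0.38), -0.39 for H2-Eb1 (-1.27 to 0.48) and 0.36 for H2-DMa (-0.67 to 1.40). For Ciita it was -1.14, with an interval from -2.87 to 0.60. Each of these intervals reaches beyond 1 on the log2 scale on 1 side, so a miss of the threshold does not show that the substrains responded alike.

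H2-DMa and H2-Eb1, which moved in opposite directions in ByJcl, were also compared within each library as a ratio of counts. The ratio of H2-DMa to H2-Eb1 was 0.355, 0.235 and 0.239 in Ajcl at baseline and 0.245, 0.125 and 0.141 in ByJcl at baseline. At Day 5 it was 1.07 and 1.11 in Ajcl (0.560 in the left-out library) and 1.07, 1.70 and 0.630 in ByJcl. All 6 libraries of Day 5 were above all 6 of baseline. A ratio within a library does not depend on its scaling, and shows unequal change of the genes only. The ratio of H2-Aa to H2-Ab1, the chains of I-A, was between 0.456 and 0.631 in the 6 baseline libraries and between 0.293 and 0.384 in the 6 of Day 5. The ratios in this text were chosen after their values were seen and carry no test.

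Across the 11 libraries of the fit, Pearson correlations of log2(CPM + 0.5) between members ranged from -0.354 (H2-Eb1 with H2-DMa) to 0.972 (H2-Eb1 with Cd74), with a median of 0.741 over the 21 pairs. The libraries share group, depth and cell makeup, so these values are descriptions. H2-DMa correlated at 0.165 with the mean of the 7 standardized genes, and the other members at 0.857 or more. Each member is part of that mean, which raises its own correlation, so these values do not compare directly with those of other genes. Of the genes outside the 7, those most like that mean were Ptprc (r = 0.951), Bmyc (0.943), Mpeg1 (0.939), Sirpb1a (0.930), Clec7a (0.927), Laptm5 (0.926), Zfp593 (0.923) and Bcl2a1d (0.922). Ptprc encodes CD45, found on all leukocytes, Mpeg1 is a macrophage and dendritic cell gene, and Clec7a encodes a myeloid receptor for fungal glucans.

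Ptprc itself was at 8.89, 7.91 and 5.80 CPM in Ajcl and at 13.8, 16.9 and 19.99 CPM in ByJcl at baseline, without overlap. Its log2FC was 1.18 (adjusted p = 0.548, edgeR), close to the values of the class II genes in that comparison. At Day 5 Ptprc was at 2.82 and 9.23 CPM in Ajcl (5.23 CPM in the left-out library) and at 17.3, 9.86 and 10.5 CPM in ByJcl, and the highest of these was the same replicate 1 that stood out for H2-Aa and H2-Ab1. In bulk RNA fewer cells of a type and less RNA per cell cannot be told apart, and the part of leukocyte number in the class II values was not tested.

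**Figure D3:**
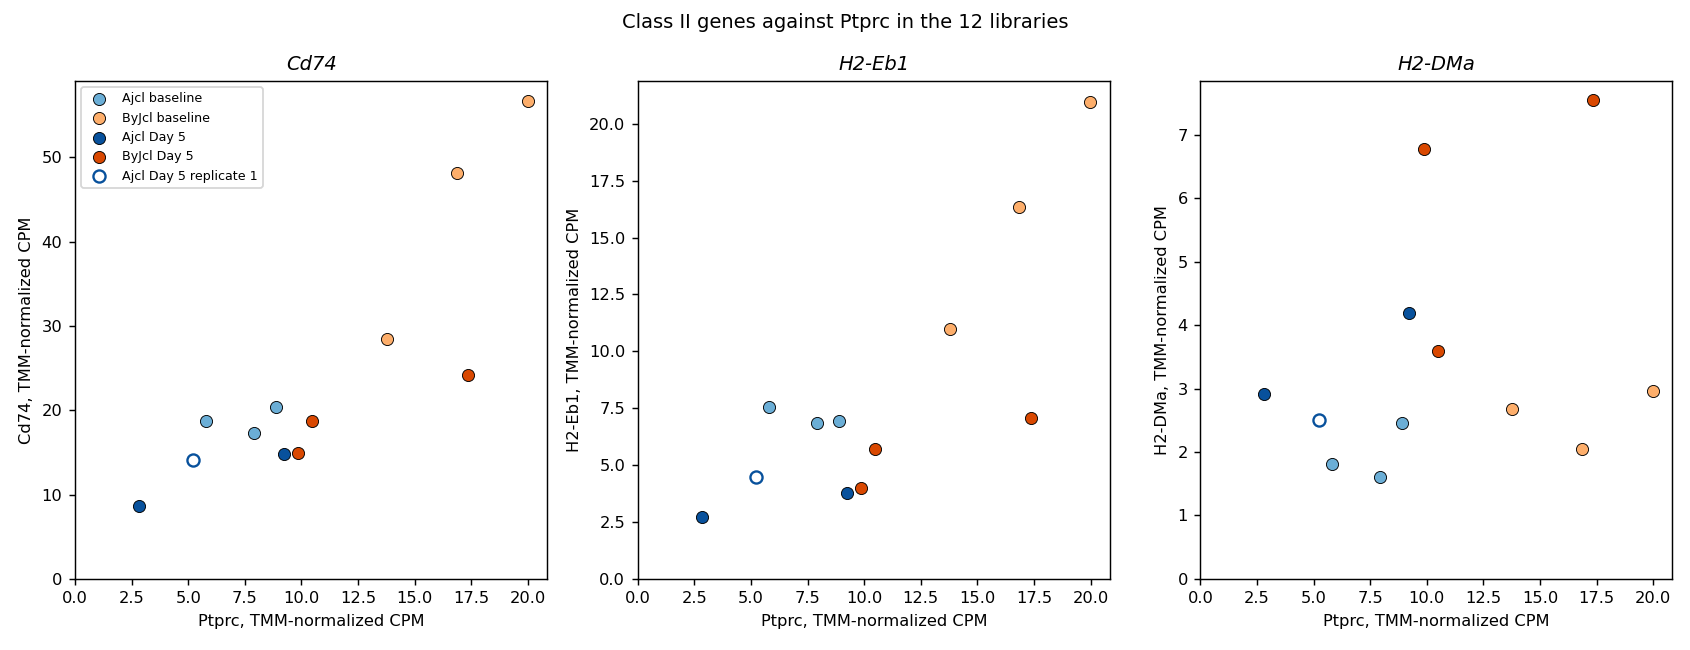
Cd74, H2-Eb1 and H2-DMa (vertical axes) against Ptprc (horizontal axis) in the 12 libraries, all in TMM-normalized CPM on linear axes from 0. Points are libraries coloured by group, and the open point is replicate 1 of Ajcl at Day 5. The Day 5 libraries of ByJcl have less Cd74 and H2-Eb1 for their Ptprc than its baseline libraries, and more H2-DMa.

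Set against Ptprc, Cd74 overlapped between the substrains at baseline, with ratios of counts of 2.29, 2.18 and 3.24 in Ajcl and 2.07, 2.86 and 2.83 in ByJcl. In ByJcl at Day 5 the ratio was lower in every library, at 1.39, 1.52 and 1.79, whereas in Ajcl it was 3.05 and 1.60, with 2.698 in the left-out library. The ratio of H2-DMa to Ptprc was between 0.121 and 0.312 in the 6 baseline libraries and between 0.344 and 1.03 in the 6 of Day 5.

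Of the 6 pan-leukocyte markers edgeR called none in either substrain comparison. At an unadjusted p below 0.05 there were 3 each time, against 8.34% of all genes at baseline and 14% at Day 5. In each substrain comparison 5 of the 6 had a log2FC above 0 (median over the list 0.79 at baseline and 1.07 at Day 5). The exception was Cd53, which DESeq2 called in both (with all 12 libraries also Ptprc at Day 5) and which had a log2FC of -1.42 at baseline and -1.07 at Day 5. Their summed level was 31.3 to 45.6 CPM in Ajcl and 41.4 to 59.9 CPM in ByJcl at baseline, and 24.6 to 46.0 and 35.8 to 72.2 CPM at Day 5. Of 9 dendritic cell markers, 9 had a log2FC above 0 at baseline (median 1.14), and neither edgeR nor DESeq2 called any. Of them 1 had an unadjusted p below 0.05, against 8.34% of all genes. At Day 5 the log2FC was above 0 for 6 of the 9 (median 0.29), with 0 at an unadjusted p below 0.05 and none called by either tool. Between baseline and Day 5 in ByJcl edgeR called 1 of them, against 10.6% of all genes. It was Cd209a, a lectin of monocyte-derived and type 2 dendritic cells, with 84, 104 and 68 counts at baseline and 12, 0 and 2 counts at Day 5 (adjusted p = 0.0142, edgeR). In Ajcl Cd209a went from 42, 34 and 34 counts to 0 and 4 (6 in the left-out library), with an adjusted p of 0.205 (edgeR), and DESeq2 called it. Clec9a, a receptor of type 1 dendritic cells, read the other way, with means of 16.8 CPM at baseline and 27.4 CPM in the 2 libraries of Day 5 in Ajcl (adjusted p = 0.0586, edgeR) and of 18.1 and 22.8 CPM in ByJcl (adjusted p = 0.0844, edgeR), and DESeq2 called it higher in both. The left-out library was at 17.3 CPM, within the Ajcl baseline range of 15.1 to 18.2 CPM, and with all 12 libraries DESeq2 called Clec9a in neither substrain. The summed dendritic list, which Zbtb46 and Clec9a dominated, was at 83.4 to 104 CPM at baseline and 85.5 to 96.8 CPM at Day 5 in ByJcl. That sum mainly describes these genes. From baseline to Day 5 in ByJcl 7 of the 9 dendritic markers had a log2FC below 0, with a median of -0.35. At an unadjusted p below 0.05 there were 3 of the 9, against 26.8% of all genes.

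Of 11 tested macrophage and monocyte markers, edgeR called 2 in ByJcl from baseline to Day 5, both higher, against 10.6% of all genes. DESeq2 called these and Csf1r, which was lower (against 15.8% of all genes), but not Csf1r with all 12 libraries. Cd68, an endosomal protein of macrophages, went from 2.96, 3.00 and 3.01 CPM to 7.04, 7.52 and 5.28 CPM (log2FC 1.17, adjusted p = 0.0128, edgeR), and Mrc1, the mannose receptor, had a log2FC of 0.56 (adjusted p = 0.0423, edgeR). Csf1r, the receptor for a macrophage growth factor, had means of 19.6 CPM at baseline and 12.8 CPM at Day 5 (log2FC -0.58, adjusted p = 0.0629, edgeR). Over the 11 genes 7 had a log2FC below 0, with a median of -0.58, while the summed level of the list was 128 to 160 CPM at baseline and 160 to 218 CPM at Day 5. Most of that sum was Mrc1, with means of 105 CPM at baseline and 152 CPM at Day 5. In the substrain comparisons 10 of the 11 had a log2FC above 0 at baseline (median 0.61) and 8 of the 11 at Day 5 (median 0.38). At an unadjusted p below 0.05 there were 2 each time, against 8.34% of all genes at baseline and 14% at Day 5. No gene of the list was called by edgeR there, and DESeq2 called Cd68 at Day 5. DESeq2 also called Mrc1 for ADR in Ajcl, but not with all 12 libraries. B and T cell markers were low in all libraries, where Ms4a1 had 0 to 22 counts and Cd3e 2 to 24. The highest of each list, Cr2 and Cd8a, reached 56 and 44 counts (1.11 and 0.950 CPM), which is within the range of H2-DMb1. Xcr1 and Flt3, of dendritic cells, had 0 to 32 and 2 to 54 counts. The part of changed cell makeup in the class II values was not tested. Markers of the glomerulus itself were abundant, with 6835 to 19918 CPM summed over 7 podocyte genes in the libraries of the fit. All 7 podocyte genes were called lower at Day 5 in ByJcl, with a median log2FC of -1.13, where 4.83% of all genes were called lower. Between the substrains at Day 5 all 7 had a log2FC below 0 (median -0.67), and edgeR and DESeq2 called none. At an unadjusted p below 0.05 there were 4 of the 7, against 14% of all genes. All 6 proximal tubule markers had a log2FC below 0 in both substrain comparisons, with medians of -0.78 at baseline and -0.95 at Day 5, none at an unadjusted p below 0.05 and none called by edgeR or DESeq2.

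The other chains of the family were weakly expressed apart from H2-Ea. Of 5 listed chains, H2-Ea, H2-DMb2 and H2-Ob were tested and H2-Eb2 and H2-Oa were below the filter. H2-DMb2, the paralog of H2-DMb1, was between 0.281 and 0.721 CPM in Ajcl and between 0.937 and 1.44 CPM in ByJcl at baseline, without overlap, a log2FC of 1.14 (adjusted p = 0.616, edgeR). H2-Ob had 6 to 36 counts over the 12 libraries.

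Interferon-gamma signalling, which induces Ciita, was examined over 7 genes. Of these edgeR called 3 in ByJcl from baseline to Day 5, all higher (against 10.6% of all genes), and none in another comparison. In those others 1 had an unadjusted p below 0.05 for ADR in Ajcl (against 9.8% of all genes) and 3 did for the substrains at Day 5 (against 14%). DESeq2 called Ifngr2 as well in ByJcl, and Irf1 in Ajcl, where it was at 58.7 and 122 CPM at Day 5 (60.7 CPM in the left-out library). With all 12 libraries DESeq2 lost both calls and called Irf1 for the substrains at Day 5. Irf1, an interferon-induced factor that acts on Ciita, went from 70.6, 71.9 and 61.6 CPM to 155, 153 and 136 CPM (log2FC 1.15, adjusted p = 0.00979, edgeR). Ifngr1, a receptor chain, had a log2FC of 0.60 (adjusted p = 0.0258, edgeR) and Socs1, the feedback inhibitor, one of 1.17 (adjusted p = 0.0311, edgeR). Jak1, a kinase of the receptor, had a log2FC of -0.03. Irf1 rose in the comparison in which Cd74 and H2-Eb1 fell, and a link between them was not tested.

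**Figure D4:**
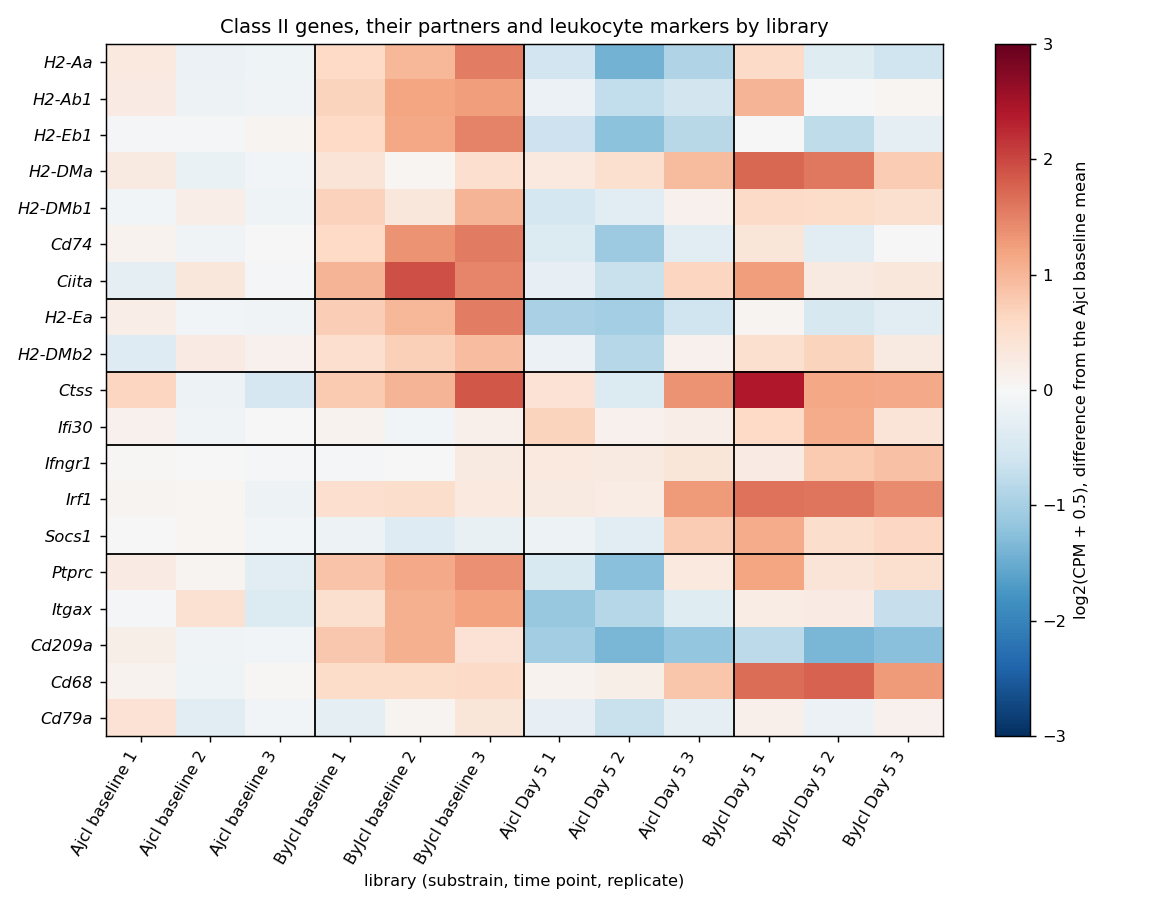
Difference of each library from the Ajcl baseline mean in log2(CPM + 0.5), coloured from blue (lower) to red (higher), for the 7 class II genes, partner chains, processing and interferon-gamma genes, and leukocyte markers. All 12 libraries are shown, Ajcl Day 5 replicate 1 included, and black lines separate the gene groups and the 4 sample groups. Irf1 and H2-DMa are red in ByJcl at Day 5, while H2-Eb1, H2-Ea and Cd209a go from red at baseline to pale or blue.

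The factors that hold Ciita on class II promoters (the RFX subunits, the NF-Y subunits and Creb1) did not pass the threshold. None of the 7 was called in any of the 5 comparisons by edgeR or DESeq2, and their log2FC lay between -0.27 and 0.47. At an unadjusted p below 0.05 there were 4 of 7 for ADR in ByJcl (against 26.8% of all genes) and 0 of 7 in the other comparisons. Creb1 and Nfya had log2FC of -0.19 and -0.25 for ADR in ByJcl. Of 8 endosomal processing enzymes, 1 was called in that comparison, against 10.6% of all genes. It was Ifi30, a reductase that opens disulfide bonds of antigens, with a log2FC of 0.71 (adjusted p = 0.0247, edgeR). Ctsd and Ctsb, cathepsins of the endosome and lysosome, had log2FC of 0.21 and -0.13. Ctss, the cathepsin that trims Cd74 from class II molecules, had log2FC of 1.36 and 1.07 in the substrain comparisons at baseline and Day 5, with adjusted p of 0.583 and 0.479 (edgeR). Of 6 genes of class II turnover and costimulation edgeR and DESeq2 called none in any comparison. At an unadjusted p below 0.05 there was 1, for ADR in ByJcl, against 26.8% of all genes. Marchf8, a ligase that removes class II molecules from the surface, and Icosl had log2FC of -0.35 and 0.03 for Day 5 against baseline in ByJcl.

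The libraries held between 42198416 and 54687045 counts, with a median of 46915194, and 3 counts correspond to 0.0554 to 0.0702 CPM. Each baseline library of ByJcl was deeper than each of Ajcl. Of counts from 1 to 49, between 77.1% and 82.85% were even numbers, so single counts were not treated as independent molecules here and no counting intervals are given. H2-DMb1, with 16 to 107 counts per library, and Ciita, with 19 to 234, rest on the fewest counts of the 7.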

How the data were processed

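RNA of glomerulus-enriched preparations from 12 libraries, 3 per substrain and time point, was measured by poly(A)-selected, strand-specific, paired-end RNA-seq. According to the submitters' processing notes, reads were checked (FastQC), trimmed (Trimmomatic), mapped with STAR on GRCm39 and assigned to genes by featureCounts. The authors deposited the gene counts, whole numbers that are neither normalized nor pooled, as tables of 26264 symbols, 1 for baseline and 1 for Day 5. The annotation and the strand setting of the counting are not given in the sources used here. Libraries were grouped by their labels, which name no difference of batch, while baseline and Day 5 were counted into separate tables. The labels do not say how many animals a library holds, so p-values measure the spread between libraries. All columns were used.

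Counts were analysed in R 4.3.3 with edgeR 4.0.16 (filterByExpr over the 4 groups, TMM, quasi-likelihood fit with 1 coefficient per group, 11 libraries, 7 residual degrees of freedom, common dispersion 0.0521). The 5 contrasts were ByJcl against Ajcl at each time point, Day 5 against baseline in each substrain, and their interaction. Benjamini-Hochberg adjustment ran over 17002 genes, and a call is an adjusted p below 0.05. The study used DESeq2, and DESeq2 1.42.0 was run as an alternative here. Levels are TMM-normalized CPM with factors over all 12 libraries, and 0.5 was added before logarithms. Replicate pairs of a group differed beyond sampling noise, so none was counted once. The fit was tested on simulated counts with known changes. Coordinates and transcript lengths come from the GENCODE annotation of GRCm39, and promoter windows from RefSeq (GRCm38.p6), set beside the canonical starts of GRCm39 by exact sequence match. No protein sequences were used here. Python 3.11.15 with pandas 2.3.3 gave the ratios and matplotlib 3.10.9 the plots.

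The 7 genes and all gene lists were chosen with earlier results of these data known. The 7 were all named. A further 2 genes of the lists were left out of every list's counts, sums and values and are not reported here. Of the pathway lists the genes past the threshold were named, and otherwise the 2 with the highest mean CPM, not scaled to length. Of the marker lists the genes past the threshold and the defining markers near 0 were named, and for likeness the 8 genes with the highest correlation. Ctss, H2-Ob, Cd53, Zbtb46, Clec9a, Csf1r, Cr2 and Cd8a were named after their values were seen. Of the endothelial markers 2 of 7, Ehd3 and Flt1, were called lower by edgeR in ByJcl at Day 5 against baseline, as were 4.83% of all genes. DESeq2 added Kdr, and with all 12 libraries called Ehd3 alone. None of the 6 proximal tubule markers, the 5 tested B cell markers or the 6 T cell markers was called in any contrast by edgeR or DESeq2.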

Additional observations from a re-analysis of the deposited data

How the results depend on the processing

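Alternatives were DESeq2, RLE size factors, total counts without TMM, no filter, at least 10 counts in total, all 12 libraries, only the groups compared, the replicate block, each library left out in turn, and DESeq2 with all 12 libraries, the last chosen after seeing the data. Of the 7 genes, DESeq2 called 4 for the substrains at baseline, 2 at Day 5 and 1 for ADR in Ajcl, and with all 12 libraries 2, 2 and 0, against 0 each in edgeR. For ADR in ByJcl the count of 3 ranged from 1 to 4 with single libraries left out, while calls over all genes ranged from 680 to 2056. Interaction values near 0 changed sign. With all 12 libraries they were -0.11 for H2-Aa, -0.065 for H2-Ab1 and 0.18 for H2-DMb1, with the replicate block -0.10 for H2-Aa and -0.12 for H2-Ab1, and with DESeq2 on 12 libraries -0.13, -0.084 and 0.17 for H2-Aa, H2-Ab1 and H2-DMb1. With single libraries left out the interaction ranged from -0.39 to 0.48 for H2-Aa, -0.33 to 0.29 for H2-Ab1, -0.44 to 0.44 for H2-DMb1 and -1.81 to 0.30 for Ciita. The change with ADR then ranged from -1.24 to 0.87 for Ciita and -0.64 to 0.24 for H2-DMb1 in Ajcl, and from -0.42 to 0.051 for H2-DMb1 in ByJcl. The cause was not tested.

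Counts over all genes moved more. For the substrains at baseline 27 genes were called, 101 in DESeq2, 69 with DESeq2 on 12 libraries and 15 with only the groups compared. At Day 5, 28 became 535, 909 and 6 in these settings, 56 without a filter and 72 with all 12 libraries. For ADR in Ajcl, 53 became 301, 325, 33 and, without a filter, 99, and for ADR in ByJcl 1800 became 1197 with all 12 libraries. The interaction had 0, 22 in DESeq2 and 7 with 12 libraries. Leaving out single libraries gave as few as 12 genes for the substrains at baseline, 9 to 218 for the substrains at Day 5 (without Ajcl Day 5 replicate 2 or 3), 11 to 180 for ADR in Ajcl (without Ajcl Day 5 replicate 3 or 2), as few as 680 for ADR in ByJcl (without ByJcl Day 5 replicate 2), and 5 for the interaction without Ajcl Day 5 replicate 3.

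Libraries with the same replicate number correlated between -0.239 and 0.374 in their deviations, over 0.1 in 4 of 15 pairs (6 of 18 with all 12 libraries). Libraries with different numbers were not compared in this way, so whether the numbers pair the libraries is not settled. The main fit used no pairing. With the replicate block 3 of the 7 genes were called for ADR in ByJcl and 0 in each other contrast, and over all genes the count for ADR in Ajcl was 26. Over all the alternatives the count over all genes for ADR in ByJcl lay between 680 and 2694. Depth limits H2-DMb1 and Ciita most, and the number of libraries limits every comparison.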
